A study of Homo sapiens with 3 samples.

Results

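The 10 genes described here encode the 5 subunits of the transcription factor NF-kB (NFKB1, NFKB2, RELA, RELB and REL) and 5 regulators that feed back on it (NFKBIA, NFKBIZ, BCL3, TNFAIP3 and BIRC3). They were chosen by gene symbol, with earlier results of these data known, from the 16149 genes listed in at least 1 of 3 mRNA sequencing libraries. All 10 were found and passed a filter on low values (a mean RPKM of 1 or more), as did 11370 genes in all. RPKM is a read number divided by gene length and by library size. The study derived metastatic subclones from HCCLM3, an established human hepatocellular carcinoma (HCC) cell line, and asked which genes differ between cells that spread to different organs. One library was made from each of 3 cultured lines: the parental cells, labelled as having low metastasis ability, subclone 1, labelled as more metastatic and specific to the lung, and subclone 2, labelled as metastatic to both the lung and the celiac lymph node. The labels give HCCLM3 as the cell line of all 3, whereas the methods name the parental cells HCCLM3-R, a derivative with red fluorescent protein, and credit them with high metastatic potential.

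The methods describe subclones grown from single cells, which were taken from lung or lymph node metastases of liver xenografts in nude mice. Such a subclone is 1 clone of its line, and which of the clones were sequenced is not given in the sources used here. All 3 lines were grown in DMEM, with no treatment named, and RNA was taken with Trizol. With 1 library per line no difference between lines could be tested, no p-value was computed, and the difference between lines cannot be told apart from that between cultures or libraries. The reads behind each RPKM were recovered from the values (4488825 in the parental library, 4609696 in subclone 1 and 4725150 in subclone 2). They give exact 95% intervals that cover counting error only. Ratios on the log2 scale were taken as log2 of RPKM + 0.1, and folds are plain ratios of RPKM.

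NF-kB proteins work as pairs of subunits. In resting cells most pairs are held in the cytoplasm by inhibitor (IkB) proteins, and signals from receptors for TNF, IL-1 or microbial products activate a kinase complex that marks the inhibitor for destruction, so that the pair enters the nucleus and binds short DNA elements called kB sites. Many genes switched on in this way encode inhibitors of the pathway itself, among them IkB-alpha (NFKBIA) and A20 (TNFAIP3), which makes their mRNA a familiar readout of pathway activity. In the liver NF-kB is known for its part in the acute phase response, inflammation and the survival of hepatocytes.

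The promoters of the 4 feedback genes with the higher ratios in the subclones, and of REL, the subunit gene that was lower, are shown first because NF-kB acts through kB sites in DNA. Each is a window of 300 bases, from 250 before to 50 after a transcription start, from RefSeq on GRCh38.p14, written 5′ to 3′ along the gene. Capitals mark every match to the kB consensus decamer, searched on both strands, and the 2 windows of NFKBIZ belong to 2 starts.
BIRC3, chr11:102317234-102317533, plus strand: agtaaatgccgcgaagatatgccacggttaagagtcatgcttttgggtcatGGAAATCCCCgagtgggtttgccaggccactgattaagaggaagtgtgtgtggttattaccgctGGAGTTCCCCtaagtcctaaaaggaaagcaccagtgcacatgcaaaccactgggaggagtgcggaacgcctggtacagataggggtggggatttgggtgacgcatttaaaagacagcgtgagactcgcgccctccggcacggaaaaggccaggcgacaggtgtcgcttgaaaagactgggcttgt
NFKBIA, chr14:35404700-35404999, minus strand: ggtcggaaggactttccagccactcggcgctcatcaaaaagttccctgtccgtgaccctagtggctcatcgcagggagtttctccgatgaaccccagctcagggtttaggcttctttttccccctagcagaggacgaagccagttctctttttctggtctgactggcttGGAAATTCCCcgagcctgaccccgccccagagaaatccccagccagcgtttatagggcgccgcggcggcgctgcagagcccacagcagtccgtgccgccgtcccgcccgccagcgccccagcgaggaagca
TNFAIP3, chr6:137867009-137867308, plus strand: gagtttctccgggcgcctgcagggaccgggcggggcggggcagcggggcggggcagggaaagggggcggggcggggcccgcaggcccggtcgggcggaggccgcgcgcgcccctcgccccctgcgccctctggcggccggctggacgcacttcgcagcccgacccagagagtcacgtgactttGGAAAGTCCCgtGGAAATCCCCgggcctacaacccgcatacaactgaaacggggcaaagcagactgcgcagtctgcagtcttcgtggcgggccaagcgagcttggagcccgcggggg
NFKBIZ, chr3:101827740-101828039, plus strand: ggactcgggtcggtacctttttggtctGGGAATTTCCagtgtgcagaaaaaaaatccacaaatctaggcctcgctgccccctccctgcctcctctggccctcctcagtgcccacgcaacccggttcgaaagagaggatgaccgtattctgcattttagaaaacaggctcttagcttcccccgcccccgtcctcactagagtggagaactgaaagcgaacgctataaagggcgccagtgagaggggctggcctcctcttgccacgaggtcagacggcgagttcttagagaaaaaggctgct
NFKBIZ, chr3:101849264-101849563, plus strand: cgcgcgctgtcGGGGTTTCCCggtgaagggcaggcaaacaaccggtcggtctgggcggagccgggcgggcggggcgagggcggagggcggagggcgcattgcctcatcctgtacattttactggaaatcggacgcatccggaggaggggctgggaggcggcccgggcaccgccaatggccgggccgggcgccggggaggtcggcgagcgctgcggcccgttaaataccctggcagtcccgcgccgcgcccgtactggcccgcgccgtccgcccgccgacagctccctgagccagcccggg
REL, chr2:60881324-60881623, plus strand: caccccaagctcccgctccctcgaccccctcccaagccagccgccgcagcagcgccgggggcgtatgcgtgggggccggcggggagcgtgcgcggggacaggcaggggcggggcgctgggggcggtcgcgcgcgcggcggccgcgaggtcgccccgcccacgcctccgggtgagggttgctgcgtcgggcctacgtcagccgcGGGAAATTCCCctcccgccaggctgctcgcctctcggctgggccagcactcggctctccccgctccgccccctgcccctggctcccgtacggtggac

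A match lay 199 and 135 bases before the start in BIRC3, 81 before it in NFKBIA, and 67 and 55 before it in TNFAIP3. In NFKBIZ it lay 223 bases before the upstream start and 239 before the downstream one, and in REL 2 overlapping matches began 47 and 46 bases before the start. Of 9 members with a promoter sequence, 8 held a match in at least 1 window (10 of 14 windows), against 11.3% of 35116 windows of the same length and 13.3% of all genes with a window. RELA was the member without a match. A match says only that these letters are present, since no binding was measured, and several of these genes are textbook NF-kB targets. The search gave 20 matches in all, where an element that reads as the consensus on both strands counts on each.

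**Figure D1:**
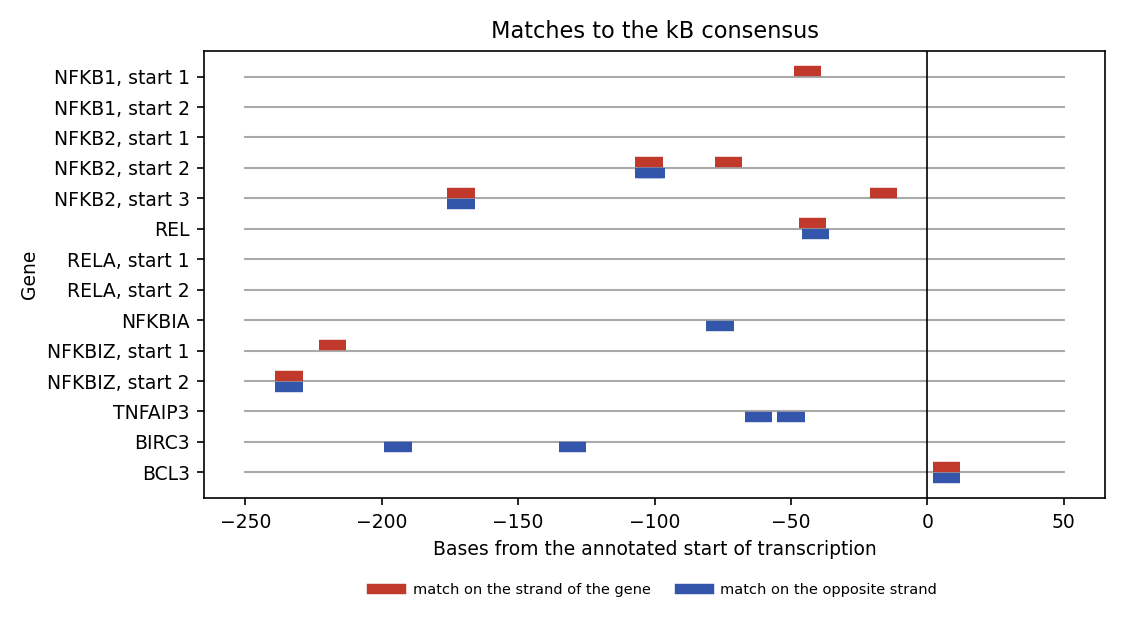
Positions of the kB consensus matches in the promoter windows of the members, in bases from the transcription start (x axis), with 1 row per window and colours for the strand of the match. The matches of TNFAIP3, at 67 and 55 bases before the start, and of REL lie close to the start, while those of NFKBIZ, at 223 and 239 bases before it, lie near the upstream end.

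In these libraries the mRNAs of the inhibitors and feedback enzymes were higher in both subclones than in the parental cells, while those of the main subunits differed little. BIRC3 had the highest ratio, 3.44-fold in subclone 1 and 4.37-fold in subclone 2, followed by NFKBIZ, NFKBIA and TNFAIP3 at 1.67- to 2.45-fold. The split was not complete. The feedback regulator BCL3 was at only 1.17- and 1.29-fold, and the subunit RELB at 1.48-fold in subclone 1 and 1.08-fold in subclone 2. RELA and NFKB1 were within 1.20-fold of the parental level in both subclones, and REL was lower, at 0.375 and 0.512 of it. The summed RPKM of the 5 subunits was 74.7 in the parental cells, 79.8 in subclone 1 and 85.6 in subclone 2, and that of the 5 feedback regulators was 100.2, 164 and 187. The feedback sum thus stood at 1.34, 2.05 and 2.18 times the subunit sum.

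**Figure D2:**
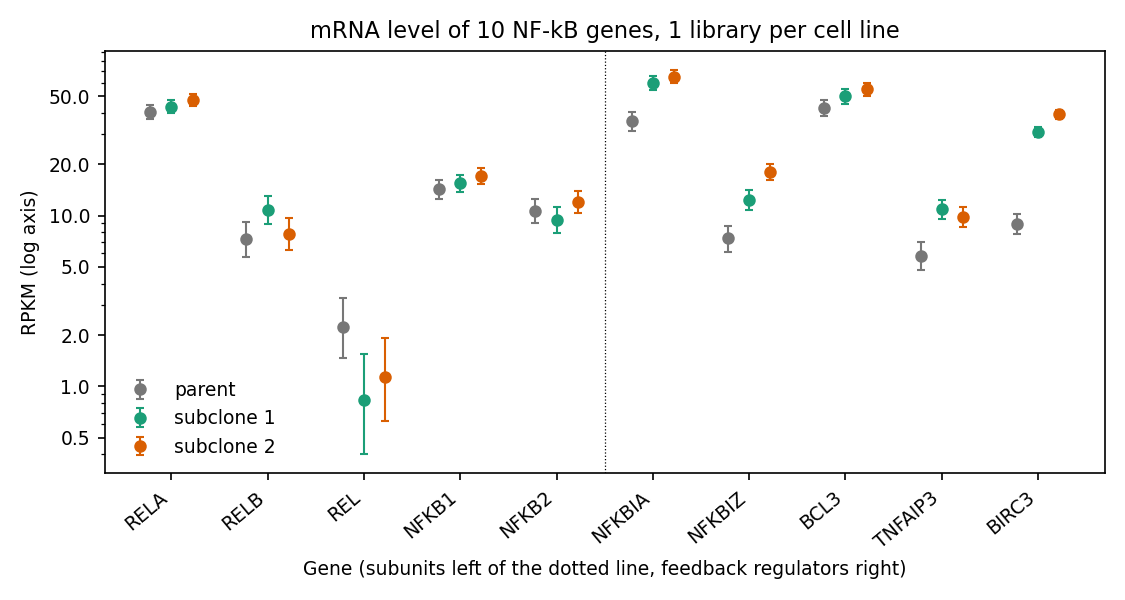
RPKM of the 10 genes in the 3 libraries, with exact 95% Poisson intervals for counting error. BIRC3 was at 8.97 in the parental cells and at 30.8 and 39.2 in the subclones, whereas RELA lay between 40.3 and 47.5 in all 3.

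RELA encodes p65, the subunit with a strong activation domain that partners p50 in the most common NF-kB pair. Its RPKM was 40.3 (36.7 to 44.1) in the parental cells, 43.4 (39.7 to 47.3) in subclone 1 and 47.5 (43.8 to 51.6) in subclone 2, from 469, 519 and 583 reads. All 3 intervals overlapped, and the fold over the parental cells was 1.08 (0.949 to 1.22) in subclone 1 and 1.18 (1.04 to 1.34) in subclone 2. RELA made up 53.9%, 54.3% and 55.5% of the summed subunit RPKM, the highest share of any subunit in each library.

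RELB encodes the subunit that acts mainly in the non-canonical branch of the pathway, paired with p52. Its RPKM was 7.27 (5.72 to 9.12) in the parental cells, 10.8 (8.88 to 12.9) in subclone 1 and 7.83 (6.26 to 9.68) in subclone 2, from 75, 114 and 85 reads. Subclone 1 was the high library, with a fold of 1.48 (1.10 to 2.01) over the parental cells, whereas subclone 2 was at 1.08 (0.780 to 1.49), although the RPKM intervals of all 3 overlapped. Between the subclones, the fold of subclone 2 over subclone 1 was 0.727 (0.543 to 0.972). Its share of the subunit sum was 9.74%, 13.5% and 9.15%.

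REL encodes c-Rel, the subunit best known from lymphocytes, and it was the member with the lowest RPKM in every library. The RPKM was 2.23 (1.46 to 3.27) in the parental cells, 0.837 (0.401 to 1.54) in subclone 1 and 1.14 (0.625 to 1.92) in subclone 2, resting on 26, 10 and 14 reads. The RPKM of both subclones was below that of the parental cells, with overlapping intervals and a fold of 0.375 (0.161 to 0.803) in subclone 1 and of 0.512 (0.247 to 1.02) in subclone 2, and the interval of the latter included 1. The recovered reads of REL could also be 13, 5 and 7, at a gene length of 1296 in place of 2592 bases. The interval of the fold would then be 0.105 to 1.12 in subclone 1 and 0.173 to 1.38 in subclone 2, so that the depth did not settle whether either ratio differed from 1. REL accounted for 2.99%, 1.05% and 1.33% of the subunit sum.

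NFKB1 encodes p105, the precursor that is cut to p50. Its RPKM was 14.2 (12.5 to 16.04) in the parental cells, 15.4 (13.7 to 17.3) in subclone 1 and 17.1 (15.3 to 19.0) in subclone 2, from 261, 291 and 330 reads. The fold over the parental cells was 1.09 (0.915 to 1.29) in subclone 1 and 1.20 (1.02 to 1.42) in subclone 2. For both NFKB1 and RELA the ratio of subclone 1 over the parental cells turned just below 0 on the log2 scale (-0.01 and -0.02) when the libraries were divided by ACTB, so no direction can be given for that pair.

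NFKB2 encodes p100, which is both the precursor of p52 and an inhibitor in its uncut form. Its RPKM was 10.7 (9.04 to 12.5) in the parental cells, 9.43 (7.91 to 11.2) in subclone 1 and 12.0 (10.3 to 13.9) in subclone 2, from 150, 136 and 178 reads. All 3 intervals overlapped, and the folds over the parental cells were 0.883 (0.695 to 1.12) and 1.13 (0.902 to 1.41). The fold of subclone 2 over subclone 1 was 1.28 (1.02 to 1.61), and that interval becomes 0.921 to 1.78 if the gene length is 1564 and not 3128 bases. NFKB2 was the 1 member with a log2 ratio below 0 in one subclone and above 0 in the other.

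NFKBIA encodes IkB-alpha, the inhibitor that NF-kB itself switches on and that returns the pairs to the cytoplasm. Its RPKM was 35.6 (31.3 to 40.2) in the parental cells, 59.9 (54.4 to 65.8) in subclone 1 and 65.0 (59.3 to 71.1) in subclone 2, from 252, 436 and 485 reads. Both subclones lay above the parental cells with no overlap of intervals, and the subclones overlapped each other. The folds were 1.68 (1.44 to 1.98) and 1.83 (1.57 to 2.14), log2 ratios of 0.75 and 0.87, which exceeded those of 92.0% and 93.1% of all genes that passed the filter. Per RPKM of RELA, NFKBIA stood at 0.883 in the parental cells, 1.38 in subclone 1 and 1.37 in subclone 2.

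NFKBIZ encodes IkB-zeta, a nuclear IkB protein that acts with p50 on a set of secondary target genes. Its RPKM was 7.36 (6.15 to 8.74) in the parental cells, 12.3 (10.7 to 14.0) in subclone 1 and 18.02 (16.1 to 20.1) in subclone 2, from 130, 223 and 335 reads. The 3 intervals were apart, with the parental cells lowest and subclone 2 highest. The folds over the parental cells were 1.67 (1.34 to 2.09) and 2.45 (1.99 to 3.02), and that of subclone 2 over subclone 1 was 1.47 (1.23 to 1.74).

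BCL3 encodes another nuclear IkB protein, which joins p50 or p52 homodimers on DNA and can activate as well as repress. Its RPKM was 42.5 (38.2 to 47.2) in the parental cells, 49.8 (45.2 to 54.8) in subclone 1 and 54.8 (50.1 to 60.0) in subclone 2, from 356, 428 and 483 reads. The folds were 1.17 (1.01 to 1.35) and 1.29 (1.12 to 1.48), smaller than those of NFKBIA, and the interval of subclone 1 overlapped those of both other libraries.

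TNFAIP3 encodes A20, an enzyme that edits ubiquitin chains and ends signalling from the TNF receptor. Its RPKM was 5.81 (4.80 to 6.97) in the parental cells, 10.9 (9.50 to 12.4) in subclone 1 and 9.81 (8.51 to 11.2) in subclone 2, from 116, 223 and 206 reads. Both subclones were above the parental cells, by 1.87-fold (1.49 to 2.36) and 1.69-fold (1.34 to 2.14). Subclone 2 stood at 0.901 (0.742 to 1.09) of subclone 1.

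BIRC3 encodes cIAP2, a ubiquitin ligase at the TNF receptor that restrains cell death and the non-canonical branch. Its RPKM was 8.97 (7.80 to 10.3) in the parental cells, 30.8 (28.7 to 33.1) in subclone 1 and 39.2 (36.7 to 41.7) in subclone 2, from 211, 745 and 970 reads. The 3 intervals were apart. The folds of 3.44 (2.95 to 4.03) and 4.37 (3.76 to 5.09), log2 ratios of 1.77 and 2.11, exceeded those of 98.5% and 98.8% of all genes. Subclone 2 was 1.27-fold (1.15 to 1.40) above subclone 1. BIRC2, the neighbouring gene that encodes the related cIAP1, was at 30.0, 32.7 and 32.8, so BIRC3 per BIRC2 was 0.299 in the parental cells, 0.944 in subclone 1 and 1.20 in subclone 2.

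**Figure D3:**
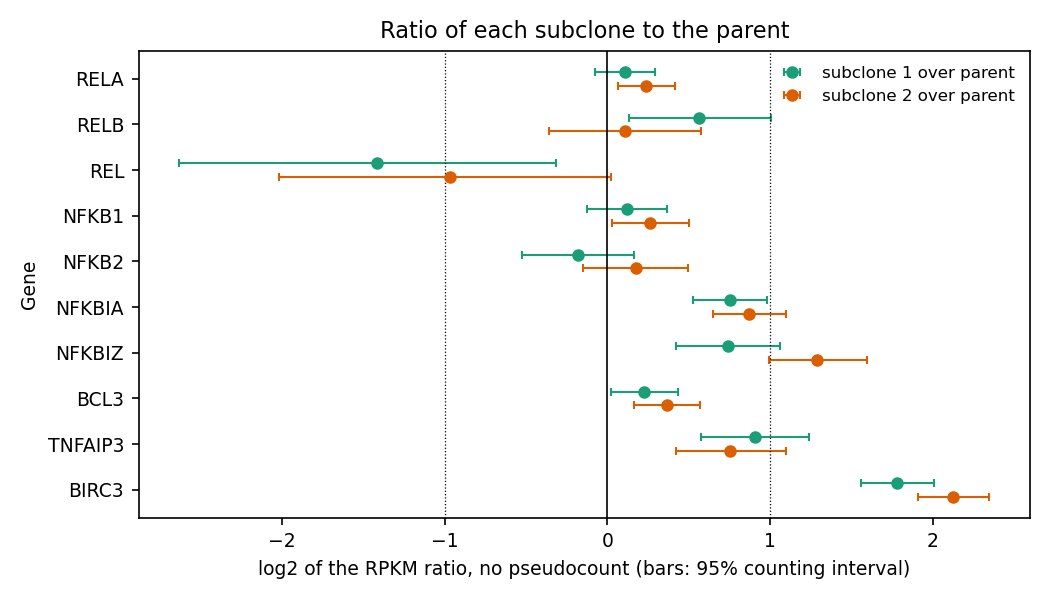
Fold of each subclone over the parental cells for the 10 genes, drawn as log2 of the RPKM ratio with no pseudocount, with exact 95% intervals for counting error, a line at 0 and dotted lines at 2-fold. BIRC3, at folds of 3.44 and 4.37, is farthest right, and REL, at 0.375 and 0.512, is farthest left with the widest intervals.

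The order of the levels shifted with BIRC3 and NFKBIA. In the parental cells BCL3, RELA and NFKBIA were highest, with overlapping neighbours, followed after a gap by NFKB1, NFKB2, BIRC3, NFKBIZ, RELB and TNFAIP3, whose neighbours overlapped, and by REL, which was apart from TNFAIP3. In both subclones NFKBIA was highest but overlapped BCL3, and BCL3 overlapped RELA. BIRC3 came next in both and was apart from its neighbours on each side. In subclone 1 NFKB1, NFKBIZ, TNFAIP3, RELB and NFKB2 followed with overlapping neighbours, and in subclone 2 NFKBIZ and NFKB1 overlapped each other and were apart from NFKB2, TNFAIP3 and RELB. REL was last and apart in both.

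The members were chosen with earlier results of these data known, so their counts are not independent of those results. Counted by size, 2 of the 10 genes differed by 2-fold or more between subclone 1 and the parental cells, where 6.72% of all genes did. Of these 2 genes 1 was higher (BIRC3), against 4.9% of all genes, and 1 was lower (REL), against 1.82%. The call of REL was lost, and the count was 1, with a pseudocount of 1 (log2 ratio of -0.82) or a minimum mean RPKM of 5. In subclone 2, 2 also differed, against 7.49% of all genes. Both were higher (BIRC3 and NFKBIZ), against 5.33%, and 0 were lower, against 2.16%. Between the subclones 0 members differed by 2-fold in either direction, against 2.81% of all genes (1.42% higher and 1.39% lower). By counting error alone, 6 members had an interval above 1 in subclone 1 (RELB and the 5 feedback regulators) where 20.4% of all genes with recovered reads did, and 1 had an interval below 1 (REL) where 19.4% did. In subclone 2, 7 did (RELA, NFKB1 and the 5 feedback regulators), against 23.3% of all genes, and 0 were below 1, against 18.3%. Between the subclones 3 members were above 1 (NFKB2, NFKBIZ and BIRC3), against 12% of all genes, and 1 was below (RELB), against 8.69%. Some of these calls depend on the settings. At the shorter gene lengths the interval of REL in subclone 1 (0.105 to 1.12) included 1. So did that of NFKB2 between the subclones (0.921 to 1.78). The interval of BCL3 in subclone 1 began at 1.01, and its log2 ratio there ranged from 0.09 to 0.24 over alternative processings.

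The median log2 ratio of the 5 feedback regulators was 0.75 in subclone 1 and 0.87 in subclone 2. That of the 5 subunits was 0.11 and 0.17, and that of all 11370 genes 0.00 and 0.04. Over all 10 members it was 0.39 and 0.31, with 8 members above 0 in subclone 1 and 9 in subclone 2, where 50.4% and 53.5% of all genes were. Between the subclones the medians were close, at 0.14 for the members and 0.03 for all genes. The ratios of both subclones share the parental library, so an error in that library would enter both.

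**Figure D4:**
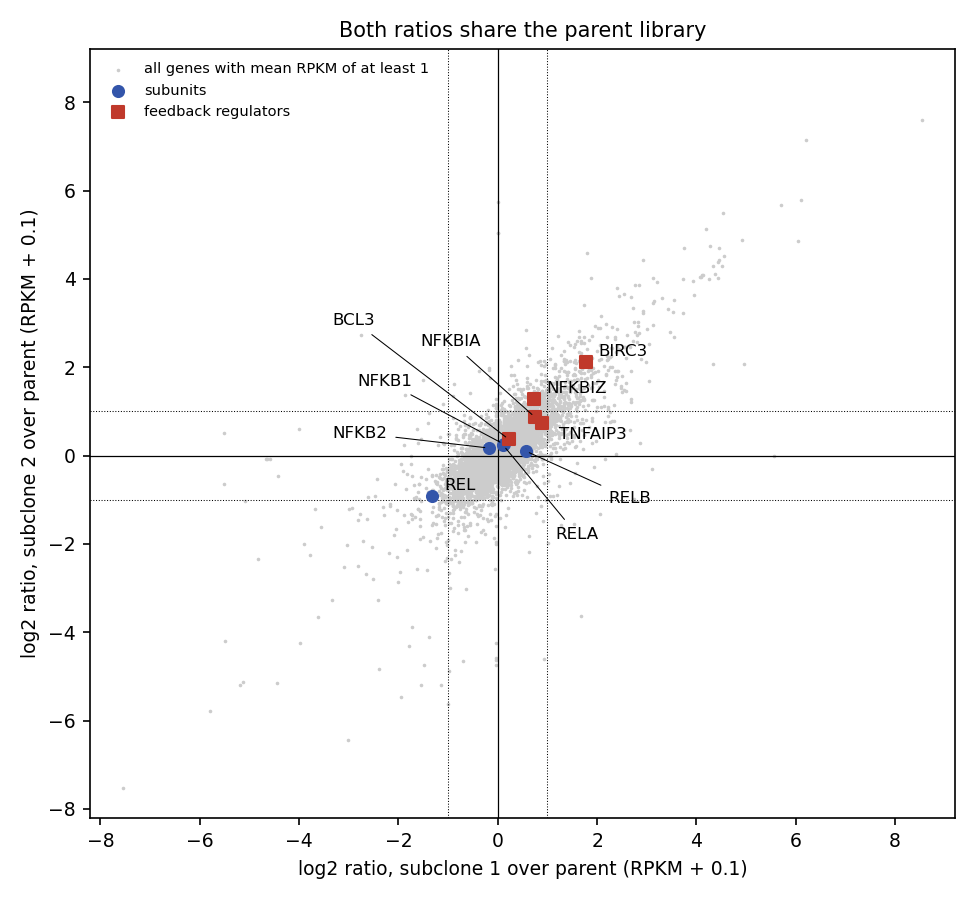
Log2 ratio of RPKM + 0.1 over the parental cells in subclone 1 (x axis) and subclone 2 (y axis), for all genes that passed the filter (grey) and the members (coloured and named), with dotted lines at 2-fold. The axes share the parental library. BIRC3 lies at 1.77 and 2.11, most other feedback regulators lie above 0 inside or near the dotted lines, and REL lies at -1.32 and -0.91.

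The rest of the pathway was read through 6 lists of 76 genes, 62 of which passed the filter. The lists were chosen with earlier results of these data known. Higher by 2-fold or more than in the parental cells were 11 of the 62 in subclone 1 and 14 in subclone 2, against 4.9% and 5.33% of all genes, and 0 were 2-fold lower in either. Among them, TNFRSF11A, NFKBID, IL1A, C3 and CFB were below an RPKM of 1 in the parental cells and passed the filter only through the subclones. With a parental RPKM of 1 or more, a filter chosen after seeing the data, the counts were 7 and 9 of 57 genes, against 3.1% and 3.41% of all genes. Between the subclones, 4 were at least 2-fold higher in subclone 2 (TLR4, CXCL3, CCL20 and LCN2), against 1.42% of all genes, and 0 were lower. Of the genes higher than in the parental cells, 10 of the 11 in subclone 1 and 11 of the 14 in subclone 2 came from the list of target genes. In the 2 subclones the kinases held 0 and 0 of 10, the adapters 0 and 0 of 11, the ubiquitin genes 0 and 1 of 11, and the receptors 1 and 1 of 7. In lists this short such counts cannot be told apart from the shares of all genes.

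The other IkB genes had ratios above 1 in both subclones, from few reads. NFKBIB, which encodes IkB-beta, was at 6.54, 10.8 and 12.1 RPKM in the parental cells, subclone 1 and subclone 2, with folds of 1.65 (1.20 to 2.28) and 1.86 (1.37 to 2.54). NFKBIE, which encodes IkB-epsilon, was at 2.24, 3.53 and 3.94, and the interval of its fold in subclone 1 (0.942 to 2.67) included 1. NFKBID was at 0.850, 1.54 and 1.96, and its intervals included 1 in both subclones, so no difference was detectable for it at this depth.

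Among the kinases and adapters that carry the signal, ratios lay on both sides of 1. Of 10 genes for the IkB kinase complex and the kinases and partners upstream, 0 differed by 2-fold, where 6.72% and 7.49% of all genes did. Their median log2 ratios were 0.01 and 0.20. CHUK, which encodes the kinase subunit IKK-alpha, was at 14.9, 11.4 and 12.4 RPKM, and IKBKB, which encodes IKK-beta, at 7.71, 7.77 and 9.10. IKBKE, which encodes the related kinase IKK-epsilon, was at 4.02, 4.53 and 6.97, with folds of 1.13 (0.794 to 1.61) and 1.73 (1.26 to 2.40). Of 11 adapters and scaffolds that passed the filter 0 differed by 2-fold, with medians of -0.10 and 0.04. In lists of 10 and 11 genes a count of 0 lies near the shares of all genes. MYD88, the adapter of Toll-like and IL-1 receptors, was lower in both subclones, at 31.3, 16.9 and 25.7 RPKM, with folds of 0.540 (0.456 to 0.637) and 0.821 (0.710 to 0.950). TRAF2, an adapter of TNF receptors that binds cIAP2, was at 10.5, 15.4 and 17.2, with folds of 1.47 (1.15 to 1.89) and 1.64 (1.29 to 2.10). CHUK, IKBKB, IKBKE, MYD88 and TRAF2 were named after their values were seen.

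Among 11 genes for ubiquitin ligases, deubiquitinases and partners of A20, 0 were 2-fold changed in subclone 1 and 1 in subclone 2. The shares of all genes were 6.72% and 7.49%. The changed gene was ZC3H12A, which encodes regnase-1, a ribonuclease that degrades inflammatory mRNAs. Its RPKM was 7.24, 13.6 and 19.0, with folds of 1.87 (1.44 to 2.45) and 2.63 (2.05 to 3.39). TNIP1, whose product binds A20, was at 27.6, 42.1 and 46.3 with folds of 1.52 (1.34 to 1.73) and 1.68 (1.48 to 1.90), and it was named after its values were seen. Of 10 receptors 7 passed the filter and 1 was 2-fold higher in both subclones, against 4.9% and 5.33% of all genes. The higher receptor gene was TNFRSF11A, which encodes RANK, at 0.924, 2.28 and 2.43 RPKM from 13, 33 and 36 reads. It passed the filter only through the subclones. Among the 6 receptors with a parental RPKM of 1 or more 0 were 2-fold higher, against 3.1% and 3.41% of all genes. The abundant receptor genes differed less, with the TNF receptor gene TNFRSF1A at 190, 231 and 255 and the lymphotoxin receptor gene LTBR at 133, 167 and 175, while CD40 and TLR2 were listed in none of the libraries.

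Of 30 textbook NF-kB target genes 20 passed the filter. Of those 20, 10 were at least 2-fold higher in subclone 1 and 11 in subclone 2, against 4.9% and 5.33% of all genes. A count of 0 were 2-fold lower in either, which lies near the 1.82% and 2.16% of all genes. In each subclone 18 of 20 had a log2 ratio above 0, where 50.4% and 53.5% of all genes did. The median log2 ratios were 0.99 and 1.10, against 0.00 and 0.04 over all genes. Since some of these genes passed the filter only through the subclones (IL1A, C3 and CFB, below an RPKM of 1 in the parental cells), the count was repeated on genes with a parental RPKM of 1 or more. This left 17 target genes, with 7 and 8 at least 2-fold higher, where 3.1% and 3.41% of all genes were, and 0 lower, where 2.61% and 2.88% were. The target list was chosen with earlier results of these data known, so its counts are not independent support for a higher pathway output. VCAM1 is also a gene that the study selected from measurements on clones of this line, so its direction is not independent of that choice.

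Among the targets, the secreted iron-binding protein gene LCN2 had RPKM of 37.4, 269 and 543, with folds of 7.19 (6.02 to 8.63) and 14.5 (12.2 to 17.3). Its reads were recovered at a gene length 3 times the smallest that the RPKM allow. At that smallest length they would be fewer and the intervals wider. VCAM1, an adhesion molecule, was at 2.35, 15.6 and 29.4, with folds of 6.62 (4.60 to 9.78) and 12.5 (8.81 to 18.3). ICAM1, another adhesion molecule, was at 39.0, 84.5 and 75.8, with folds of 2.16 (1.96 to 2.39) and 1.94 (1.75 to 2.15). These 3 genes had no overlap between the intervals of the parental cells and either subclone.

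The chemokine genes rested on fewer reads, and not all had an interval above 1. CXCL1 was at 1.79, 21.9 and 21.6 RPKM (9, 113 and 114 reads), with folds of 12.2 (6.22 to 27.4) and 12.0 (6.12 to 27.0). CXCL2 was at 2.53, 5.27 and 5.32, and CXCL3 at 1.34, 2.42 and 6.17, with folds of 1.81 (0.671 to 5.35) and 4.61 (2.01 to 12.3). CXCL1, CXCL2 and CXCL3 are close copies of one another, and their reads may have been split in counting, so the values of each are uncertain. CCL20 was at 8.12, 12.2 and 26.1, with folds of 1.51 (0.940 to 2.45) and 3.22 (2.14 to 4.97). CXCL8, listed as IL8, was at 10.1, 20.5 and 17.7, with folds of 2.02 (1.53 to 2.68) and 1.75 (1.32 to 2.34). The gene length used for CXCL8 is 2 times the smallest that the RPKM allow, at which its intervals would be wider. CCL5, which did not pass the filter, was at 0.720, 0.877 and 0.171 from 4, 5 and 1 reads, too few to show a difference.

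The interleukin-1 genes, complement genes and SOD2 completed the set. IL1B was at 5.06, 9.99 and 16.7 RPKM, with folds of 1.98 (1.29 to 3.07) and 3.30 (2.23 to 4.98), and IL1A at 0.908, 2.95 and 3.24. The central complement gene C3 was at 0.917, 8.80 and 11.1, with folds of 9.60 (6.12 to 15.8) and 12.1 (7.74 to 19.8), and the complement gene CFB at 0.926, 4.92 and 5.44. SOD2, the mitochondrial superoxide dismutase, was at 27.5, 55.3 and 61.5, with folds of 2.01 (1.69 to 2.39) and 2.23 (1.89 to 2.65). Other targets did not have this pattern. PLAU, the urokinase gene, was at 10.1, 8.90 and 7.34, with folds of 0.885 (0.678 to 1.16) and 0.730 (0.551 to 0.965). IER3 was at 0.893 (0.753 to 1.06) of the parental level in subclone 1 and 1.04 (0.886 to 1.23) in subclone 2. CSF1, a macrophage growth factor gene, was higher in subclone 1, at 1.23 (1.10 to 1.38), but at 0.947 (0.842 to 1.06) in subclone 2. PLAU, IER3, CSF1 and CCL5 were named after their values were seen. IL6, CCL2, MMP9 and LTB were listed in none of the libraries and TNF in subclone 1 alone, at 0.130 RPKM from 1 read.

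**Figure D5:**
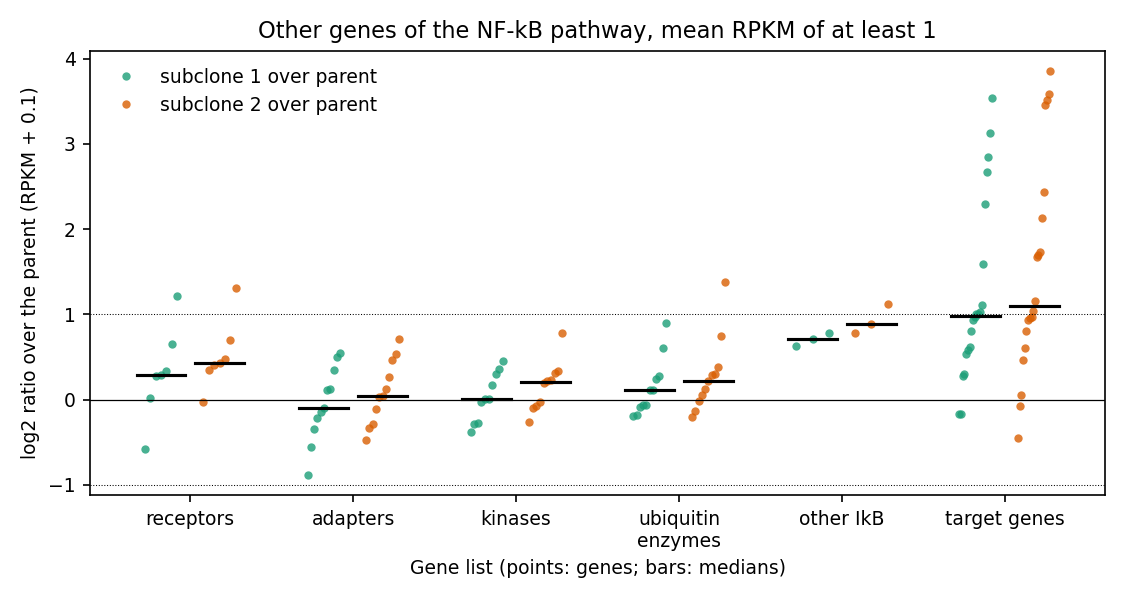
Log2 ratio of RPKM + 0.1 of each subclone over the parental cells for the genes of the 6 pathway lists that passed the filter, with a point per gene and a bar at the median of each list. The target genes have medians of 0.99 and 1.10, the kinases of 0.01 and 0.20, and the adapters of -0.10 and 0.04.

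The share of genes with a kB match was highest in the lists of target genes and other IkB genes. The target list holds textbook NF-kB targets, so its share is not independent of how it was chosen. Only genes listed in at least 1 library were counted, so IL6, CCL2, MMP9, LTB, CD40 and TLR2 were left out whether or not they had a window. A match was present in 10 of 21 target genes with a promoter window (47.6%) and in both of the other IkB genes with one. It was present in 1 of 9 kinase genes, 2 of 11 adapter genes, 2 of 10 ubiquitin genes and 0 of 8 receptor genes, against 13.3% of all genes with a window, listed or not. These lists are too short to be told apart from that share.

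Markers of other cell types moved in the same libraries. The summed RPKM of 8 hepatocyte and HCC markers was 2572, 2772 and 2869, mostly from the keratins KRT8 and KRT18, while ALB, the albumin gene, was at 2.46, 49.5 and 68.8, and TTR, SERPINA1 and APOA1 were below an RPKM of 1 in every library. Of the markers of the labelled cell type, the keratins were thus abundant and several secreted liver proteins were at or near 0. The 8 leukocyte markers summed to 84.5, 126 and 111, nearly all from CD68, with CD3E and CD4 listed in none of the libraries and PTPRC, which marks leukocytes, in the parental library alone at 0.0836. The 7 fibroblast markers summed to 15.7, 31.2 and 24.3, with LUM at 10.1, 24.0 and 21.0, the collagen gene COL3A1 in the other direction at 4.42, 2.21 and 0.463, and PDGFRB listed in none, and the 5 endothelial markers to 5.11, 11.9 and 7.60, with PECAM1 at 3.33, 9.81 and 4.46. The part of these sums in the ratios of the feedback regulators was not tested. The libraries came from cultured lines, and the methods name no other cell type in the cultures. In bulk libraries fewer cells with an mRNA and less of that mRNA per cell cannot be told apart.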

How the data were processed

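One mRNA library was analysed from each of 3 lines of HCCLM3: the parental cells, subclone 1 and subclone 2, as grouped by the labels. The authors deposited RPKM values for genes with an RPKM above 0, and genes that a library did not list were taken as 0. The build was hg19 per the submitters' processing notes. The aligner, the counting tool, the annotation, and whether strand or shared reads were considered are not given in the sources used here.

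The members and the pathway lists were chosen with earlier results of these data known. Log2 ratios between libraries had 0.1 added to each RPKM. The background was the 11370 of 16149 genes whose mean RPKM reached 1. With 1 library per line no test was possible. Whole reads were recovered because the RPKM of a gene in the 3 libraries stand in ratios of whole numbers, within 0.0001 reads. Ratios of library totals came from 572 and 542 genes of equal reads, and totals from 1838 genes of low values, 86.9% of which gave a whole length. Lengths were compared with RefSeq transcripts, under a rule that was changed once the values were known, since at first it assigned more reads than the totals. Reads were recovered for 97.4% of the background genes. Poisson intervals of RPKM and Clopper-Pearson intervals of ratios are exact, at 95%, and cover counting error only. The steps were tested on simulated data.

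Named were all 10 members, the pathway genes that passed the filter and were at least 2-fold changed in either subclone with an interval apart from 1, and the 3 genes closest to BIRC3 in the pair of ratios, 1 of which is not reported here. Other names were added after values were seen. Promoters came from RefSeq on GRCh38.p14, whose gene table held 99.4% of the gene numbers. No hg19 coordinates were used. Python 3.11.15, numpy 2.4.6, pandas 2.3.3, scipy 1.17.1 and matplotlib 3.10.9 were used. Alternatives were pseudocounts of 0.01 and 1, 5 scalings, a filter at a mean RPKM of 5 or none, and a threshold of 1.5-fold.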

Additional observations from a re-analysis of the deposited data

Results flagged for a closer look

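NFKB2 had a log2 ratio below 0 over the parental cells in subclone 1 (-0.18) and above 0 in subclone 2 (0.17), a gap of 0.35 between the subclones. It was singled out because its 1 library of each subclone lay on opposite sides of the parental value. The difference was not tested, and the counting interval of the fold between the subclones (1.02 to 1.61) reaches below 1 (0.921 to 1.78) if the gene length is 1564 bases.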

How the results depend on the processing

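No paired analysis was possible because every line was sequenced once, which also means that no library could be left out. The median log2 ratio of the members kept its direction under every alternative, with a range of 0.26 to 0.56 in subclone 1, 0.28 to 0.38 in subclone 2 and 0.09 to 0.27 between the subclones. Of the counts at 2-fold, that of the members in subclone 1 was 1 with a pseudocount of 1 or a minimum mean RPKM of 5, and at 1.5-fold the members numbered 5 in each subclone. The pathway genes in subclone 1 numbered 7 with a pseudocount of 1, a minimum mean RPKM of 5 or a parental RPKM of at least 1 (chosen after seeing the data), and 23 at 1.5-fold. In subclone 2 they numbered 8 with a minimum mean RPKM of 5, 9 with a parental RPKM of at least 1, and 25 at 1.5-fold. Between the subclones they numbered 2 after division by the upper quartile or with a minimum mean RPKM of 5, 7 with no filter and 9 at 1.5-fold. The share of all genes past 1.5-fold is not given here, so the counts at 1.5-fold cannot be read as an excess. Division by ACTB changed the share of higher among 2-fold changed genes in subclone 1 from 72.9% to 57.8% and shifted the median of all genes to -0.13. Between the subclones that share went from 50.5% to 64.0% with ACTB and 62.6% with GAPDH. Among single genes, 174 of 175 values in each comparison with the parental cells and 171 of 175 between the subclones moved by less than their counting interval. The log2 ratio changed sign for RELA and NFKB1 in subclone 1 (division by ACTB) and for CXCL1 (-0.07 to 0.10) and CXCL2 (-0.04 to 0.13) between the subclones, all values close to 0. Depth limits REL, which rests on 10 to 26 reads.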

Other observations

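Some genes beside the members on the chromosome had ratios on the same side as the member and others did not. Neighbours were taken among genes that passed the filter, 2 on each side of each member, which gave 40 genes. Their median log2 ratio was 0.05 in subclone 1 and 0.11 in subclone 2. In subclone 1, 1 of the 40 was at least 2-fold higher and 0 were lower, against 4.9% and 1.82% of all genes. In subclone 2, 3 were higher and 2 lower, against 5.33% and 2.16%. Beside BIRC3, YAP1 was at 43.3, 31.4 and 34.9 RPKM in the parental cells, subclone 1 and subclone 2, and TMEM123 at 203, 162 and 186. On the same side as BIRC3 were C11orf70, at 2.23, 2.96 and 4.62, and BIRC2, at 30.0, 32.7 and 32.8. The counting intervals of the folds of C11orf70 included 1 (0.570 to 3.20 and 0.977 to 4.69), as did those of BIRC2 (0.965 to 1.23 and 0.968 to 1.23). Beside NFKB1, the zinc transporter gene SLC39A8 was at 2.17, 4.87 and 5.27, and beside TNFAIP3, the interferon-gamma receptor gene IFNGR1 was at 90.2, 147 and 147. Beside REL, PUS10 was at 1.92, 1.19 and 0.776, PAPOLG at 3.32, 2.58 and 2.41, FANCL at 8.13, 5.82 and 6.16, and PEX13, which differed little, at 8.17, 8.15 and 7.81. The fold intervals of PAPOLG, FANCL and PEX13 included 1 in both subclones. That of PUS10 included 1 in subclone 1 (0.341 to 1.10) but not in subclone 2 (0.199 to 0.774). Beside BCL3, PVRL2 was at 59.5, 88.5 and 103. These neighbours were named after their values were seen.

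Among the genes with a pair of log2 ratios closest to that of BIRC3 over the 3 libraries were ZNF821 and SLC7A9, at distances of 0.12 and 0.13 on the log2 scale. Both were below an RPKM of 1 in the parental cells (0.551 and 0.747), where few reads set their ratios.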
